A study of Mus musculus with 31 samples.

Results

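Ccl5, Xcl1, Ifng and Nkg7, 4 genes of T cell effector function, were measured in CD4+ and CD8+ T cells of the mouse choroid plexus. The genes were chosen by name with earlier results of these data known, as genes proposed to differ between the sorted populations. All 4 were found among the 485 genes of the deposited table and passed its filters. Small pools of 6 to 20 T cells (CD45+ CD11b- CD3+, and CD4+ or CD8+) were sorted from choroid plexus tissue of C57BL6/J female mice, and their RNA was counted with unique molecular identifiers (UMIs), molecular tags by which each captured transcript is counted once. Housing began at 4 weeks of age and lasted 4 weeks. It was either an enriched environment (EE, large cages with running wheels, toys and tunnels) or a standard environment (SE, smaller cages without objects). No transgene, deletion or drug was involved. The 31 libraries comprised CD4+ T cells in EE (n = 9) and SE (n = 8) and CD8+ T cells in EE (n = 7) and SE (n = 7). The titles of CD8 SE replicates 5 and 6 name a single animal, and their descriptions name animals 5 and 6 jointly, so they may come from 1 mouse or from a pool, and the 7 libraries stand for 6 mouse identities. Mice of an experiment that had the same housing also had the same cage, and the effects of cage and housing cannot be told apart. The comparisons ask how the effector transcripts differ between the sorted populations and whether housing moved them. The latter was the question of the RNA sequencing, which was a part of the study.

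Ccl5 and Xcl1 encode chemokines. Ccl5 (RANTES) draws T cells and monocytes, and Xcl1 (lymphotactin) draws dendritic cells that carry Xcr1. Ifng encodes interferon gamma, the cytokine through which T cells and natural killer cells act on macrophages and on many tissue cells. Nkg7 encodes a membrane protein of cytotoxic granules. Memory and effector CD8+ T cells keep Ccl5 and Nkg7 transcripts in store, whereas Ifng and Xcl1 transcripts rise quickly after the T cell receptor is engaged. The choroid plexus secretes the cerebrospinal fluid into the brain ventricles, and most T cells that reside there are of memory type.

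On GRCm38, with GENCODE annotation, Ccl5 lies at chr11:83525778-83530518 (minus strand, 3 exons in its coding transcript) and Xcl1 at chr1:164931644-164935527 (minus strand, 3 exons). Ifng lies at chr10:118441046-118445892 (plus strand, 4 exons) and Nkg7 at chr7:43437073-43438249 (plus strand, 3 to 4 exons). Ifng shares 22.6% of the 31-base words of its transcripts with Gm49751, a tentative gene model on the same strand inside the gene. Xcl1 lies within Gm20743 on the opposite strand, and whether the counting used strand is not given in the sources used here. For Ccl5, 0.539% of the words occur in other genes, and none do for Nkg7 or Xcl1.

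The bases before the start of transcription are shown for the 3 members found in the RefSeq promoter table (GRCm38.p6), because Xcl1 and Nkg7 differed between CD4+ and CD8+ T cells and Ifng did not pass the test. Each is written 5′ to 3′ in the direction of the gene and stops before the first base of either annotation. Capitals mark matches, on either strand, to GGTGTG (T-box core), TGTGGT (Runx core), TGANTCA (AP-1), GGAAA (NFAT core) and TTCNNNGAA (STAT). Matches that overlap are merged in the capitals.
Xcl1, chr1:164935528-164935772 (minus strand, 245 bases): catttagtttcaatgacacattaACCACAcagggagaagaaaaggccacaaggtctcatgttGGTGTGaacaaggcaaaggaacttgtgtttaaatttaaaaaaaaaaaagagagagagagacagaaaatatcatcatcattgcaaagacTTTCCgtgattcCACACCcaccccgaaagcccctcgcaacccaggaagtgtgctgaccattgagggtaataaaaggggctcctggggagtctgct
Ifng, chr10:118440796-118441045 (plus strand, 250 bases): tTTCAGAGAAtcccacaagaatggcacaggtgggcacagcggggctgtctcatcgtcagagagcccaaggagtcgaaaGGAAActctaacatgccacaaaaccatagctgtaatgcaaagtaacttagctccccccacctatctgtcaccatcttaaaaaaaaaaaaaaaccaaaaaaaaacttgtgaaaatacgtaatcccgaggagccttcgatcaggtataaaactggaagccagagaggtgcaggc
Nkg7, chr7:43436888-43437072 (plus strand, 185 bases): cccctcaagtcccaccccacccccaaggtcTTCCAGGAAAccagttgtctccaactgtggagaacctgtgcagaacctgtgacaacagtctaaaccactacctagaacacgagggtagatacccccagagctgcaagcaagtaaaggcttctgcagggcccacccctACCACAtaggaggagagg
The Xcl1 stretch held 2 matches to the T-box core, which is found in 16.3% of all 32851 promoter windows of 250 bases. The Runx core had 1 match each at Xcl1 and Nkg7 and is found in 14.1% of windows. The NFAT core had 1 match at each of the 3 genes, and 55.6% of windows hold it. Ifng and Nkg7 had 1 STAT match each (7.02% of windows), the one at Nkg7 overlapping its NFAT core, and AP-1 had 0 matches (6.75% of windows). These are letters in a window and no evidence of binding.

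Values are normalised UMI counts, the UMIs of a library divided by its size factor. The UMI total over the table ran from 1910 to 26395 (median 5097), and library names carry a first number, 1 or 2, which may mark the series of collection. The 19 libraries with number 1 held 1910 to 10089 UMIs and the 12 with number 2 held 7657 to 26395. Cd4 was at 0 UMIs in every CD8 library and in 1 of 17 CD4 libraries. Cd8a and Cd8b1 were at 0 in every CD4 library, and Cd8b1 in 1 of 14 CD8 libraries. The authors had left out CD4 samples with Cd8a or Cd8b transcripts. Of the other T cell markers 10 of 15 were in the table, and their summed level ran from 64.3 to 125 in CD4+ and from 63.2 to 131 in CD8+ T cells. None of 10 natural killer cell, 6 B cell or 5 erythrocyte markers had a row in the filtered table, which does not give their level.

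**Figure D1:**
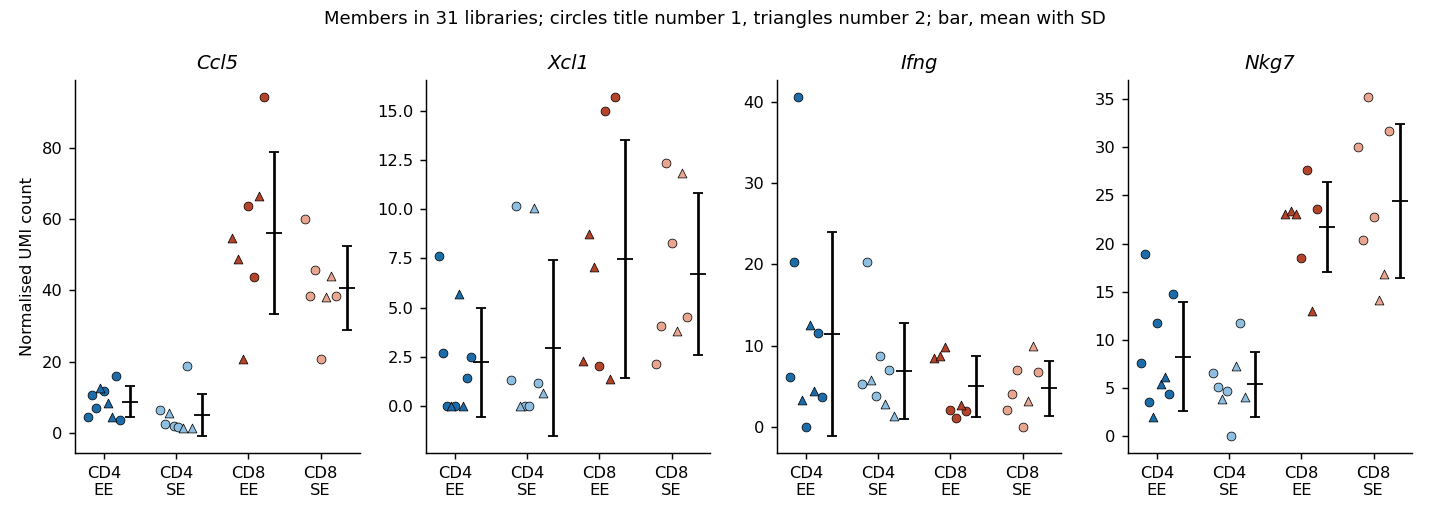
Normalised UMI counts of Ccl5, Xcl1, Ifng and Nkg7 (y axis, a separate linear scale per gene) in every library of the 4 groups (x axis). Points are libraries, circles with the first number 1 and triangles with 2, and the bars give the mean with the SD. The Ccl5 values of all 14 CD8 libraries (20.7 to 94.3) sit above those of all 17 CD4 libraries (1.37 to 18.8), and Ifng is spread most widely in CD4+ T cells from EE.

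Ccl5, Nkg7 and Xcl1 were higher in CD8+ than in CD4+ T cells, and Ifng did not pass the test. Over all libraries 36 of 485 genes were called between the populations (7.42%, limma on log2(value + 1) with the environment as covariate, Benjamini-Hochberg adjusted p under 0.05). Of these, 15 were lower in CD4+ T cells (3.09% of the genes tested), 3 members among them, and 21 were higher. The members were proposed as genes that differ between the populations, so their share among the called genes is no independent result. With libraries rescaled to the same total, the split was 23 lower and 15 higher in CD4+ T cells. In bulk pools, fewer cells that make a transcript and less of it per cell cannot be told apart.

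Ccl5 ranged in CD8+ T cells from 20.7 to 94.3 normalised counts (median 54.6) in EE and from 20.7 to 60.1 (median 38.4) in SE. In CD4+ T cells it ranged from 3.70 to 15.9 (median 8.38) in EE and from 1.37 to 18.8 (median 2.22) in SE. No CD4 library reached the lowest CD8 library, and Ccl5 and Cd8a were the only genes of the table, 0.412% of 485, whose CD4 and CD8 libraries did not overlap. For Cd8a this was largely set by the sort on CD8 and by leaving out CD4 samples with its transcripts. The Ccl5 mean was 48.4 ± 19.1 (SD, n = 14) in CD8+ and 7.03 ± 5.32 (SD, n = 17) in CD4+ T cells, a ratio of 6.89. On the log2(value + 1) scale the difference CD4 minus CD8 of Ccl5 was -2.85 (SE 0.251, limma adjusted p = 1.83e-12). By p it ranked 2 among 485 genes. Every CD4 library nevertheless held at least 1 UMI of Ccl5, and together they held 136 UMIs against 936 in CD8+ T cells.

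Nkg7, the granule protein gene, ranged in CD8+ T cells from 13.0 to 27.7 normalised counts (median 23.1) in EE and from 14.1 to 35.2 (median 22.7) in SE. Its range in CD4+ T cells was from 2.01 to 18.9 (median 6.14) in EE and from 0 to 11.8 (median 4.91) in SE. The populations overlapped at their edges, since 2 of 17 CD4 libraries, both from EE, lay above the lowest CD8 library and the other 15 below all CD8 libraries. The mean was 23.1 ± 6.45 (SD, n = 14) in CD8+ and 6.94 ± 4.83 (SD, n = 17) in CD4+ T cells, a ratio of 3.33. The difference CD4 minus CD8 was -1.83 on the log2 scale (SE 0.264, limma adjusted p = 9.84e-07).

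Xcl1, the second chemokine, was the least counted member. It ranged in CD8+ T cells from 1.37 to 15.7 normalised counts (median 7.04) in EE and from 2.15 to 12.3 (median 4.52) in SE. Its range in CD4+ T cells was from 0 to 7.62 (median 1.45) in EE and from 0 to 10.2 (median 0.930) in SE. The groups overlapped widely, with 10 of 14 CD8 libraries below the highest CD4 library. No CD8 library was at 0 UMIs, while 7 of 17 CD4 libraries were, and those had UMI totals between 1910 and 16477 (median 6900), against a median of 4895 in the 10 CD4 libraries with Xcl1. A count of 0 allows up to 3 UMIs, and 13 of 17 CD4 and 5 of 14 CD8 libraries held at most that many. The mean was 7.08 ± 4.98 (SD, n = 14) in CD8+ and 2.55 ± 3.57 (SD, n = 17) in CD4+ T cells. The difference CD4 minus CD8 was -1.51 on the log2 scale (SE 0.389, limma adjusted p = 0.00976), and with DESeq2 on the recovered counts it did not pass the threshold (-1.47, adjusted p = 0.0871, the range over its 43 alternatives being 0.00263 to 0.158).

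Ifng, the cytokine, had a mean of 9.28 ± 9.99 (SD, n = 17) in CD4+ and 4.87 ± 3.46 (SD, n = 14) in CD8+ T cells. In CD4+ T cells it ranged from 0 to 40.6 normalised counts (median 6.10) in EE and from 1.37 to 20.3 (median 5.50) in SE. In CD8+ T cells it ranged from 1.15 to 9.78 (median 2.74) in EE and from 0 to 10.0 (median 4.07) in SE. The populations overlapped over the whole range of the CD8 libraries, and 1 library of each was at 0 UMIs. The difference CD4 minus CD8 was 0.58 on the log2 scale, with a 95% interval from -0.19 to 1.35 (limma adjusted p = 0.383).

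Within each first number Ccl5 and Nkg7 kept their differences. Ccl5 was at -2.88 (CD4 minus CD8, log2, limma adjusted p = 3.96e-08) among libraries with number 1 and at -2.88 (adjusted p = 7.07e-06) among those with number 2. Nkg7 was at -1.96 (adjusted p = 0.000433) and -1.80 (adjusted p = 0.000136). Xcl1 kept its direction and lost the call in both, at -1.68 (adjusted p = 0.0539) and -1.47 (adjusted p = 0.158). Ifng changed sign, from 1.36 (adjusted p = 0.115) with number 1 to -0.44 (adjusted p = 0.611) with number 2, and neither passed the test. Its means were 11.6 ± 11.6 (SD, n = 11) in CD4+ and 3.15 ± 2.58 (SD, n = 8) in CD8+ T cells with number 1. With number 2 they were 5.04 ± 3.98 (SD, n = 6) and 7.16 ± 3.29 (SD, n = 6). At most 3 UMIs of Ifng were held by 2 of 11 CD4 and 6 of 8 CD8 libraries with number 1. With number 2 this held for 1 of 6 CD4 and 0 of 6 CD8 libraries.

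Of the members, none was called between number 2 and number 1 themselves, where 52 of 485 genes were (10.7%, limma). The difference number 2 minus 1 was -0.29 for Ccl5, -0.22 for Xcl1, 0.14 for Ifng and -0.41 for Nkg7 on the log2 scale (adjusted p from 0.369 to 0.857).

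Other signals were also compared between the populations. The summed level of Ttr and Enpp2, the choroid plexus epithelium markers in the table (2 of 10), had a median of 173 (76.4 to 263) in CD4+ and 100.3 (74.9 to 312) in CD8+ T cells. Neither gene was called (limma). Cst3, the only gene of the myeloid list in the table (1 of 15), had a median of 4.74 (1.18 to 22.9) in CD4+ and 4.71 (0 to 24.6) in CD8+ T cells. It was not called (limma), and this gene alone does not give the level of myeloid cells. The 24 genes in the table of a list of 38 that respond to the T cell receptor or to cell handling had a summed median of 361 (173 to 650) in CD4+ and 218 (152 to 347) in CD8+ T cells. The part of these signals in the differences of the members was not tested.

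In all, 10 mice gave both a CD4 and a CD8 library, which allows the comparison within a mouse. The genes were chosen with earlier results of these data known. The adjustment over 4 tests does not allow for that choice, so these p-values are no independent test. Ccl5 was lower in the CD4 library of 10 of 10 mice, with a mean difference CD4 minus CD8 of -2.68 ± 1.28 on the log2 scale (SD, n = 10 mice, exact sign-flip permutation test, two-sided p = 0.00195, the smallest this design gives, adjusted over 4 tests 0.00391). Nkg7 was also lower in 10 of 10 mice, by -1.74 ± 0.835 (SD, n = 10, exact p = 0.00195, adjusted 0.00391). For Xcl1 the CD4 library was lower in 8 of 10 mice, with a mean of -1.40 ± 1.62 (SD, n = 10, exact p = 0.0293, adjusted 0.0391). The 2 exceptions were SE mice, and one of them is the mouse of CD8 SE replicates 5 and 6, whose identity is uncertain. Ifng was higher in the CD4 library of 6 mice and lower in 4, with a mean of 0.23 ± 1.38 (SD, n = 10, exact p = 0.602, adjusted 0.602). Without the uncertain mouse the means were -2.52 for Ccl5, -1.83 for Nkg7, -1.61 for Xcl1 and 0.35 for Ifng (n = 9, exact adjusted p = 0.00781, 0.00781, 0.0260 and 0.461), an alternative chosen after seeing the data.

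**Figure D2:**
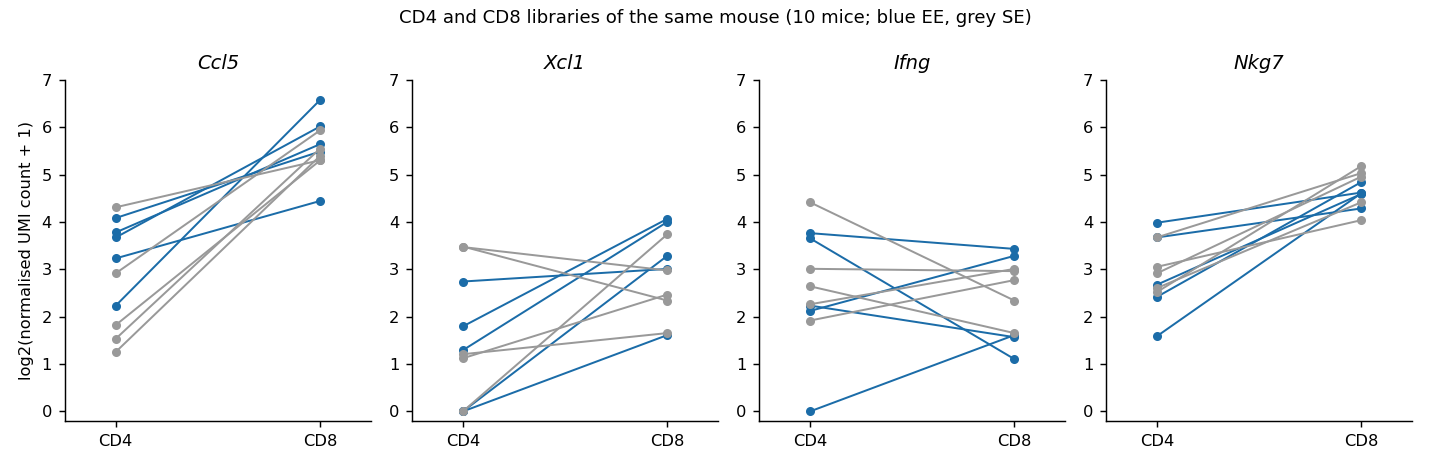
Levels of the 4 genes on the log2(normalised UMI count + 1) scale (y axis) in the CD4 and CD8 libraries of the same mouse (x axis). Each line is 1 of 10 mice, EE in blue and SE in grey. All 10 lines rise towards CD8+ T cells for Ccl5 and Nkg7, 8 do for Xcl1, and the lines cross for Ifng.

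The smallest same-mouse difference of Ccl5 was -0.99 log2 units, in an SE mouse whose CD4 library held 18.8 normalised counts, the highest Ccl5 among CD4 libraries, against 38.4 in its CD8 library. The largest was -4.34, in an EE mouse with 3.70 in CD4+ and 94.3 in CD8+ T cells. A mouse that was high in one population was not detectably high in the other. Over the 10 mice, the deviations of the CD4 and CD8 library from the means of their group and first number gave Pearson r of -0.22 for Ccl5 (permutation p = 0.533), 0.04 for Xcl1 (p = 0.903), -0.02 for Ifng (p = 0.966) and -0.20 for Nkg7 (p = 0.589), all at 0.966 after adjustment over 4 tests. Spearman's rho was -0.30 (permutation p = 0.405), -0.19 (p = 0.607), -0.04 (p = 0.918) and -0.42 (p = 0.230) in the same order. Without the 2 mice farthest from the median, r lay between -0.19 and 0.25. CD8 SE replicates 5 and 6 alone make up their group and first number, so their deviations cancel when averaged. The mouse they stand for therefore adds no information on the CD8 side, though it is counted among the 10.

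No member was called between EE and SE in either population. In CD4+ T cells 0 of 483 genes passed the threshold (0%, limma), with 18 genes at an unadjusted p under 0.05, and both count-based tests run on recovered UMIs, edgeR and DESeq2, called 1 gene each, in neither case a member. In CD8+ T cells 0 of 484 genes passed (0%, limma), with 12 at an unadjusted p under 0.05, and edgeR and DESeq2 called 0.

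Ccl5 in CD4+ T cells had the largest difference of the members on the log2(value + 1) scale of limma, while with edgeR and DESeq2 Ifng was larger (0.95 against 0.83, and 0.89 against 0.85), and with number 1 Nkg7 was (0.94 against 0.76). All 9 EE libraries lay above the SE median of 2.22 normalised counts, and 6 of 9 lay above the SE mean. None exceeded the highest SE library, replicate 7, with 18.8. Counts were low, with at most 3 UMIs of Ccl5 in 4 of 8 SE and 2 of 9 EE libraries. The SE median corresponded to 3 UMIs in a library, against 8 in EE. The mean was 8.82 ± 4.26 (SD, n = 9) in EE and 5.01 ± 5.93 (SD, n = 8) in SE. The difference EE minus SE was 1.00 on the log2 scale, with a 95% interval from 0.17 to 1.83 (limma, unadjusted p = 0.0198, adjusted p = 0.992), and it ranked 8 by p among 483 genes. Without SE replicate 7 it was 1.31 (limma adjusted p = 0.395, the lowest among its 27 alternatives). It was 0.76 among libraries with number 1 and 1.40 among those with number 2 (adjusted p = 0.957 and 0.911).

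For the other members in CD4+ T cells the intervals included 0. Nkg7 had a mean of 8.28 ± 5.69 (SD, n = 9) in EE and 5.42 ± 3.36 (SD, n = 8) in SE, and a difference of 0.55 on the log2 scale (95% interval from -0.33 to 1.43). Ifng had a mean of 11.4 ± 12.6 in EE and 6.89 ± 5.92 in SE, and a difference of 0.29 (from -0.77 to 1.35). The Ifng mean in EE rested on replicate 3, which held 40.6, and without that library the log2 difference was -0.01, while it was 0.95 with edgeR, 0.89 with DESeq2 and 0.80 with number 2 (adjusted p of at least 0.911). Xcl1 had a mean of 2.22 ± 2.78 in EE and 2.93 ± 4.47 in SE, and a difference of -0.05 (from -1.25 to 1.15). The limma adjusted p was 0.992 for each of these 3 genes. The intervals of all 3 leave room for a rise of 1 log2 unit in EE, and that of Xcl1 also for a fall of 1.

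In CD8+ T cells Ccl5 had a mean of 56.1 ± 22.7 (SD, n = 7) in EE and 40.8 ± 11.8 (SD, n = 7) in SE, and 3 of 7 EE libraries lay above all SE libraries. The difference EE minus SE was 0.39 on the log2 scale (95% interval from -0.13 to 0.91, limma adjusted p = 0.950), 0.72 with number 1 and 0.09 with number 2. Nkg7 had a mean of 21.8 ± 4.67 in EE and 24.4 ± 8.00 in SE, and its difference of -0.13 had the narrowest interval of the members (from -0.59 to 0.33). Xcl1 differed by -0.06 (from -1.0 to 0.88) and Ifng by 0.09 (from -0.95 to 1.13), and the adjusted p of these 3 genes was 0.991. Means in EE and SE were 7.46 ± 6.05 and 6.71 ± 4.11 for Xcl1, and 4.98 ± 3.80 and 4.75 ± 3.40 for Ifng.

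The effect of EE was not shown to differ between CD4+ and CD8+ T cells for any member. The difference of the differences was 0.61 for Ccl5, 0.01 for Xcl1, 0.20 for Ifng and 0.68 for Nkg7 on the log2 scale (limma adjusted p from 0.976 to 0.996). Of 485 genes 0 were called (0%), with 12 at an unadjusted p under 0.05, and edgeR and DESeq2 called 0.

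**Figure D3:**
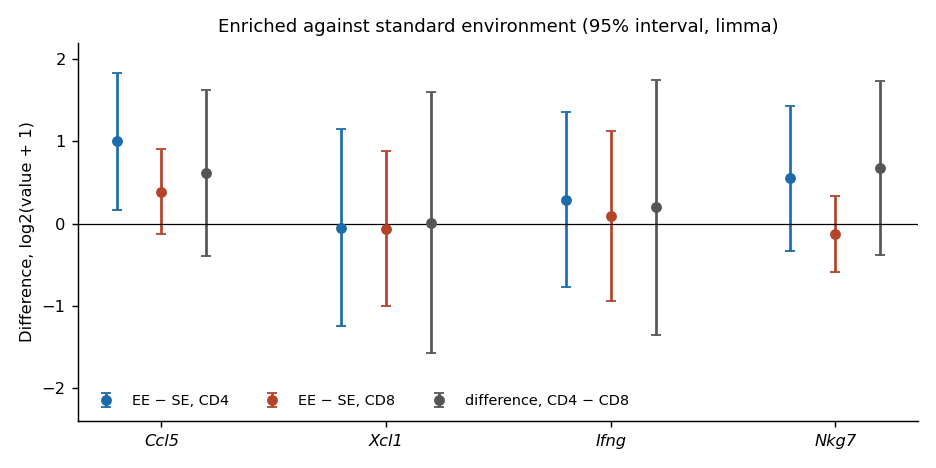
Difference EE minus SE of each gene in CD4+ (blue) and CD8+ T cells (red), and the difference between these differences (grey), on the log2(value + 1) scale (y axis). Points are limma estimates and bars 95% intervals. The interval of Ccl5 in CD4+ T cells (0.17 to 1.83) leaves out 0 and all others include it.

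The spread between libraries was compared with the spread that counting alone gives at these depths. Ifng in CD4+ T cells from EE had an SD of 12.6 against 3.83 from counting, a variance 10.8 times the counting variance, which was higher than for 97.9% of the 483 genes detected in that group. In the same group Ccl5 had an SD of 4.26 against 3.37 (1.60 times in variance), close to the median of all genes (1.68 times). Ccl5 in CD8+ T cells from EE was at 8.86 times, above 97.3% of genes, though this ratio grows with the level and its squared coefficient of variation beyond counting (0.145) was above 73.1% of genes, and in CD4+ T cells from SE at 6.08 times, above 94.4%.

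Nkg7 had the smallest spread of the members in CD8+ T cells from EE. Its SD of 4.67 was no larger than the 4.74 from counting (0.971 times in variance), and in SE it was 8.00 against 5.78 (1.92 times). The ratio in SE was above those of Xcl1 and Ifng. The squared coefficient of variation beyond counting was lower there for Nkg7 (0.0514) than for Xcl1 (0.171) and Ifng (0.223). In CD4+ T cells from EE the Nkg7 variance was 3.04 times the counting variance. Xcl1 ran from 1.84 times in CD8+ T cells from SE to 5.91 times in CD4+ T cells from SE. Ifng, at 1.77 times in CD8+ T cells from SE and 2.80 times in EE, was less spread there than in CD4+ T cells (4.40 times in SE).

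**Figure D4:**
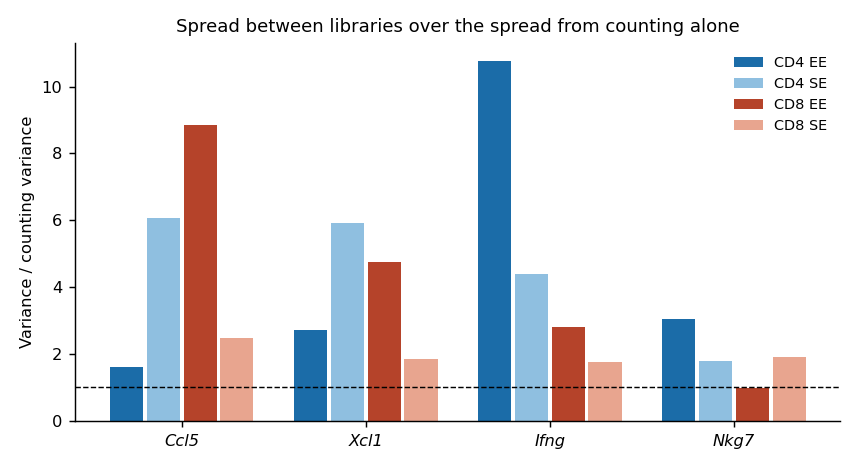
Variance of the normalised counts between the libraries of a group, divided by the variance from counting alone (y axis, linear), for the 4 genes in the 4 groups. The dashed line at 1 is counting alone. The bar of Ifng in CD4+ T cells from EE reaches 10.8, and that of Nkg7 in CD8+ T cells from EE stays at 0.971.

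Whether the members rose and fell together between libraries was tested on the deviations of log2(value + 1) from the mean of each group and first number (n = 31 libraries, permutation within group and number, 6 pairs). No pair passed after adjustment. Xcl1 and Nkg7 had the highest correlation, with r = 0.40 (permutation p = 0.0733, adjusted p = 0.440) and Spearman's rho 0.48 (p = 0.0191, adjusted p = 0.114), and deviated to the same side in 22 of 31 libraries. The deviations of CD8 SE replicates 5 and 6 mirror each other, and both are among the 22. Without the 2 libraries farthest from the median r was 0.38. Within the first numbers it was 0.35 (number 1) and 0.65 (number 2).

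For Xcl1 and Ifng, both induced by the T cell receptor, r was 0.26 (permutation p = 0.196, adjusted p = 0.588) and rho 0.30 (p = 0.126, adjusted p = 0.378), and r was 0.18 with number 1 and 0.51 with number 2. The 2 chemokines had r of -0.22 (p = 0.331, adjusted p = 0.662) and rho of -0.15 (p = 0.473, adjusted p = 0.876), and r was -0.13 and -0.40. Ccl5 and Nkg7, the members that differed most between the populations, had r of 0.20 (permutation p = 0.501, adjusted p = 0.717) and rho of -0.01 (p = 0.978, adjusted p = 0.978), and r was 0.04 without the 2 farthest libraries. It was 0.40 among libraries with number 1 and -0.62 among those with number 2. Ifng gave r of 0.08 with Ccl5 and -0.08 with Nkg7 (permutation p = 0.692 and 0.717, adjusted p = 0.717 for both), with rho of 0.11 and 0.01 (permutation p = 0.584 and 0.975, adjusted p = 0.876 and 0.978). In number 1 and number 2 these r were 0.09 and 0.05 with Ccl5, and -0.18 and 0.51 with Nkg7.

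**Figure D5:**
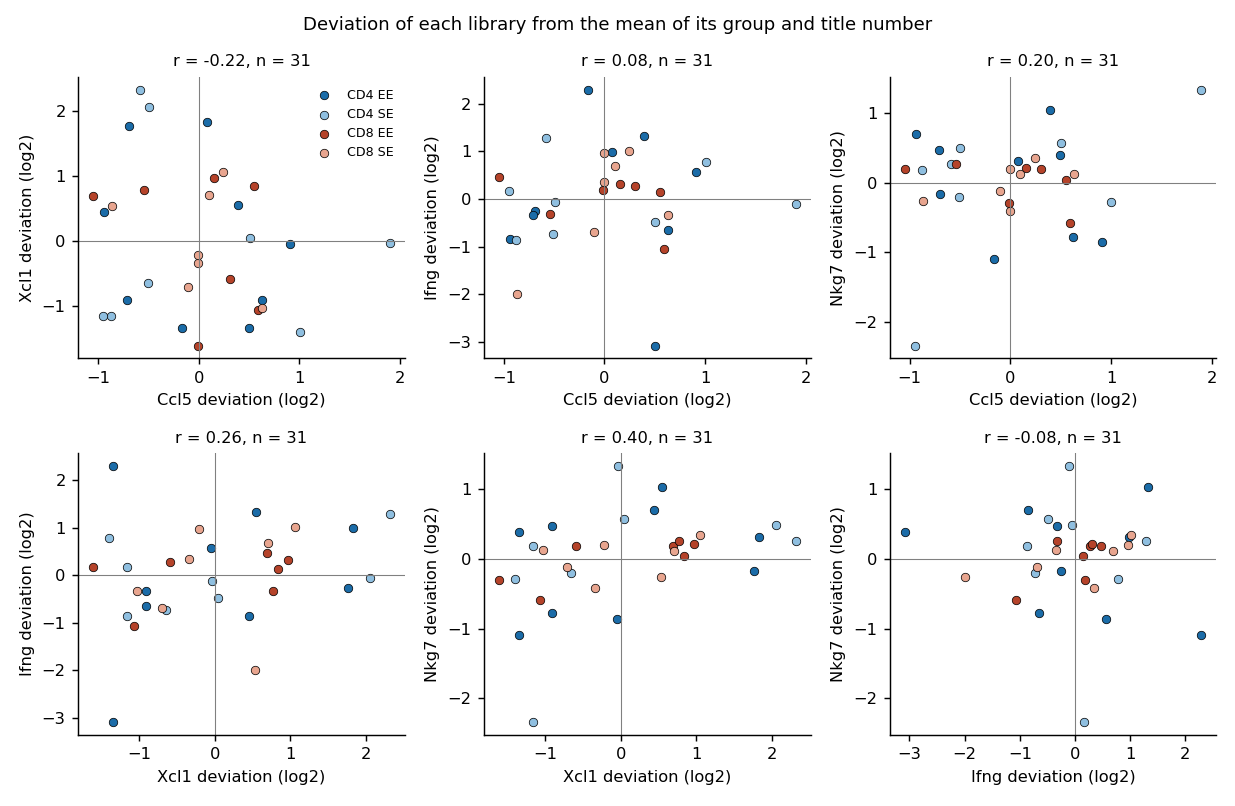
Deviations of each library from the mean of its group and first number for the 6 pairs of genes (both axes in log2 units). Points are the 31 libraries, coloured by group, and Pearson's r stands above each panel. The r values run from -0.22 for Ccl5 and Xcl1 to 0.40 for Xcl1 and Nkg7.

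Within single groups the same 6 pairs gave 24 tests, of which 0 passed adjustment and 1 had an exact permutation p under 0.05. This was again Xcl1 with Nkg7, in CD8+ T cells from EE (n = 7), with r = 0.78 (exact permutation p = 0.00258, adjusted p = 0.0619) and rho = 0.96 (exact p = 0.00278, adjusted p = 0.0667). There r was 0.54 without the 2 libraries farthest from the median. The same pair had r of 0.36 in CD4+ T cells from EE (n = 9, exact permutation p = 0.334), 0.43 in CD4+ T cells from SE (n = 8, exact p = 0.307) and 0.02 in CD8+ T cells from SE (n = 7, exact p = 0.974). Over all pairs and groups r ran from -0.55 to 0.78, and 14 of 24 values were positive.

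The members were also set against measures of the libraries, in 20 tests on the same deviations, and none passed adjustment. Ifng went with the mean log2 level of the 24 receptor response and handling genes (n = 31, r = 0.50, permutation p = 0.0142, adjusted p = 0.285, rho = 0.39, p = 0.0595). That r was 0.67 among libraries with number 1, -0.13 among those with number 2, and 0.32 without the 2 libraries farthest from the median. With the 15 interferon gamma response genes in the table, Ifng gave r of 0.10 (permutation p = 0.637, rho = 0.03, p = 0.887) and Xcl1 0.38 (permutation p = 0.0721, adjusted p = 0.481, rho = 0.40, p = 0.0540). With the log2 UMI total, r ran from -0.14 for Ccl5 to 0.26 for Xcl1 (permutation p = 0.495 and 0.165, rho = -0.24 and 0.31). With the choroid plexus markers, Nkg7 had r of -0.23 (permutation p = 0.0438, adjusted p = 0.438, rho = -0.35, p = 0.0671).

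The genes most like each member are given as a description. On the centred deviations over 31 libraries, Ccl5 was nearest to Gm11808 (r = 0.57), Cd247 (0.55), the zeta chain of the T cell receptor complex, and Btg2 (0.50). Xcl1 was nearest to Cfl1 (0.60), Il2rb (0.59), a receptor chain for interleukin-2 and interleukin-15, and Psme2 (0.58). Ifng was nearest to Actr3 (0.69), Rps7 (0.67) and Cox4i1 (0.63), and Nkg7 to a row entered as sept-01 (0.71), Cd37 (0.62) and Atp5o (0.58). Among 484 genes Xcl1 ranked 21 for Nkg7 and Nkg7 ranked 31 for Xcl1 (r = 0.40), and the members of every other pair ranked 71 or lower.

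Without centring, which leaves the CD4 and CD8 difference in, the order changed. Ccl5 was then nearest to Cd8b1 (r = 0.85), Cd8a (0.83) and Nkg7 (0.75), Nkg7 to Cd8a (0.75), Ccl5 (0.75) and Cd8b1 (0.71), and Xcl1 to Nkg7 (0.62), Cd8a (0.58) and Bcl2 (0.56). Ifng was nearest to Actr3 (0.61), Hnrnpk (0.60) and Ywhaz (0.57), and its r with Ccl5 was -0.16. The points share library and population, so these values describe levels only.

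Other genes of the effector programme were read from a list of 46 cytotoxic and effector genes, 16 of which had a row in the table, the members included. Between CD4+ and CD8+ T cells 6 of the 16 were called (limma), 5 lower and 1 higher in CD4+ T cells. Over all genes 7.42% were called, 3.09% lower and 4.33% higher. Of the 5 lower genes 3 were members. The members, this list and the lists that follow were chosen with earlier results of these data known, so their shares of called genes are no independent result. The median difference of the 16 genes was 0.04 log2 units (0.08 without the members), beside 0.07 over all genes tested. Besides the 3 members, Ctsw, a cathepsin of cytotoxic cells, was at 5.84 ± 3.09 (SD, n = 17) in CD4+ and 14.2 ± 6.59 (SD, n = 14) in CD8+ T cells (-1.20 on the log2 scale, limma adjusted p = 0.00570). Ly6c2, a surface marker of memory CD8+ T cells, was at 4.55 ± 4.26 and 12.1 ± 6.57 (-1.50, limma adjusted p = 0.00238). Cd44, the adhesion receptor of activated and memory T cells, was the gene higher in CD4+ T cells, at 5.61 ± 2.36 and 1.95 ± 1.60 (1.30, limma adjusted p = 0.00190). The transcripts of granzymes and perforin had no row in the filtered table, which does not give their level.

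Of the receptors for the products, Ifngr1 was the 1 of 6 in the table, and it was not called between the populations (0.33 log2 units). Of 37 interferon gamma response genes 15 were in the table and 3 were called, all higher in CD4+ T cells by limma, where 21 of 485 genes were (4.33%), with a median difference over the list of 0.24 log2 units. Among them were Ifi27l2a (17.0 against 5.43 normalised counts, limma adjusted p = 3.40e-05) and Ly6e (29.7 against 18.8, limma adjusted p = 0.0119). Among 24 regulators of effector genes 3 were in the table, and Klf6 was called, higher in CD4+ T cells (4.80 against 2.10, limma adjusted p = 0.0347).

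The table held 24 of the receptor response and handling genes, of which 5 were called between the populations (limma), 4 higher in CD4+ T cells, beside 7.42% of all genes called and 4.33% called higher. These were Junb (38.6 against 15.9 normalised counts), Nr4a1 (18.8 against 6.90), Odc1 (6.99 against 1.93) and Hsp90aa1 (15.8 against 8.68). Nr4a2 was lower in CD4+ T cells (1.76 against 4.84). Between EE and SE no gene of any of these lists was called in CD4+ or CD8+ T cells by limma. The cytotoxic and effector list had a median difference EE minus SE of 0.25 log2 units in CD4+ T cells, beside -0.04 over all genes, and of 0.16 in CD8+ T cells, beside 0.04.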

How the data were processed

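The authors removed adaptors with cutadapt, mapped reads to mm10 with STAR 2.4.0a, used Drop-seq tools and Ensembl GRCm38 gene models to count UMIs, left out low-abundance genes, and normalised with DESeq2. The deposited values are this normalised signal (UMI count over size factor) for 485 genes. Whole UMI counts were recovered for 100% of values (tolerance 0.02). Groups came from the titles. Tests used limma 3.58.1 on log2(value + 1), two-sided, over all genes above 0 in a library compared (adjusted p threshold 0.05), with edgeR 4.0.16 and DESeq2 1.42.0 on recovered counts as alternatives. Correlations used exact permutation or 100000 resamples (Python 3.11.15, scipy 1.17.1). Scripts were tested on simulated data. A mouse was defined by environment, first number and animal number. CD8 SE replicates 5 and 6 share these and were averaged in mouse pairs. P-values measure the spread between these libraries. Floors of 3 UMIs cover counting error only. The members and lists were chosen with earlier results of these data known, and the measures set against the members were added after their values were seen. Named genes were the members, the 3 nearest genes to each by either correlation, and list genes that were called, at most 6 per list and direction, and 1 such gene is not reported here.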

Additional observations from a re-analysis of the deposited data

Results flagged for a closer look

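Of 16 combinations of gene and group, 3 had a library far from the others, judged by its gap to the nearest library over the range of the group (Dixon's test, in which chance marks about 1 in 20). Ifng in CD4+ T cells from EE stood at 40.6 normalised counts in replicate 3. Ifng in CD4+ T cells from SE stood at 20.3 in replicate 2. Ccl5 in CD4+ T cells from SE stood at 18.8 in replicate 7.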

How the results depend on the processing

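The higher Ccl5 and Nkg7 in CD8+ T cells kept direction and call under all 43 alternatives (log2 difference CD4 minus CD8 from -2.99 to -2.32 and from -1.97 to -1.40), each library left out included. Xcl1 kept its direction under all 43 (from -1.91 to -0.78, the latter with pseudocount 4) and its call under all but 3, where it was -1.47 (DESeq2), -1.68 (number 1) and -1.47 (number 2). Ifng turned to -0.44 with number 2. Between the populations 55 genes were called with DESeq2 and 20 in each first number, where fewer libraries entered. In EE against SE 1 gene was called in CD4+ T cells with pseudocount 4, edgeR or DESeq2, and 1 in CD8+ T cells with number 1. With the mouse as a replicate block (fitted correlation 0.101), the populations differed in 53 genes, and Ccl5 was at -2.84, Xcl1 at -1.48, Ifng at 0.55 and Nkg7 at -1.82. The block changed no call of a member. With CD8 SE replicates 5 and 6 averaged, Ccl5 was at -2.83, Xcl1 at -1.50, Ifng at 0.61 and Nkg7 at -1.86, with no call changed.

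Differences EE minus SE near 0 changed sign. In CD4+ T cells, with number 1 Xcl1 was at 0.19 and Ifng at -0.039, and with number 2 Nkg7 was at -0.19. In CD8+ T cells, Xcl1 was at 0.0061 (pseudocount 4), 0.086 (edgeR), 0.10 (DESeq2), 0.043 (number as covariate) and 0.54 (number 1). Ifng was there at -0.25 (covariate) and -0.56 (number 1), and Nkg7 at 0.0054 (covariate) and 0.36 (number 2). For the difference of the EE effect between the populations, Xcl1 was at -0.065 (pseudocount 4), -0.49 (edgeR), -0.45 (DESeq2), -0.062 (covariate), -0.36 (number 1) and -0.11 (replicate block), and Nkg7 at -0.56 (number 2). With each library left out in turn, the difference EE minus SE in CD4+ T cells ran from -0.29 to 0.27 for Xcl1 and from -0.010 to 0.66 for Ifng, and in CD8+ T cells from -0.29 to 0.18 for Xcl1 and from -0.28 to 0.30 for Ifng. The difference of the EE effect ran from -0.23 to 0.33 for Xcl1 and from -0.10 to 0.57 for Ifng, and number 2 minus 1 from -0.021 to 0.31 for Ifng. The r ran from -0.022 to 0.21 (Ccl5 and Ifng), -0.033 to 0.29 (Ccl5 and Nkg7) and -0.18 to 0.073 (Ifng and Nkg7).

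Between number 2 and number 1, edgeR called 90 genes and DESeq2 104, Xcl1 was at 0.043 (edgeR), Ifng at -0.16 (edgeR) and -0.15 (DESeq2), and Nkg7 passed with DESeq2 (-0.58, adjusted p = 0.0265). Among libraries with number 2, r was -0.62 for Ccl5 and Nkg7 and 0.51 for Ifng and Nkg7. The cause of these changes was not tested. Counts of 0 to 3 UMIs were found in 13 of 17 CD4 libraries for Xcl1, 6 for Ccl5, 5 for Nkg7 and 3 for Ifng. Among 14 CD8 libraries they were found in 6 for Ifng, 5 for Xcl1, and 0 for Ccl5 and Nkg7. The table does not hold the full depth of a library.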
